A study of Mus musculus with 5 samples.

Results

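Methylated bins with a low 5-hydroxymethylcytosine (5hmC) ratio were defined among the 1 kb bins of chromosomes 1 to 19. They were captured by a methyl-CpG binding domain and by an antibody to 5-methylcytosine (5mC). With an antibody to 5hmC, their ratio to input was low. Of 2297452 autosomal bins with at least 1 read, 5296 met the rule, which was a ratio to input of 3 or more in the 600 mM MethylCap eluate, a ratio of 3 or more in MeDIP with anti-5mC, and a ratio below 1.5 in hMeDIP with anti-5hmC. The ratio was (RPM + 0.5)/(input RPM + 0.5), where RPM is the read count scaled to 1000000 reads on chromosomes 1 to 19 and X. A total of 30122 bins passed the first 2 conditions and are called doubly enriched. The members were 17.6% of these, and the other 24826 are the bins they are set against.

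The study profiled both cytosine modifications in mouse embryonic stem cells cultured without feeders, with leukaemia inhibitory factor and 10% fetal calf serum. The 4 enriched libraries were from E14 gene-trap clones at passages 11 to 14, with no treatment named in the labels. They were MethylCap eluates at 600 mM and 800 mM NaCl (10462783 and 7507520 reads on chromosomes 1 to 19 and X), MeDIP (10442811 reads) and hMeDIP (18519740 reads). The input (18676265 reads) came from chromatin of TNG-A cells, which derive from E14 and carry an EGFP reporter in the Nanog locus, so it differs in line and in DNA preparation from the libraries it was compared with. There was 1 library of each kind. No test between conditions was therefore possible, no difference has a replicate check, and intervals are exact 95% intervals that cover counting error alone. The reads carry no molecular identifier, so PCR copies cannot be told from separate fragments at the same position. All ratios share the same input, and neighbouring bins are not independent.

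As background, 5mC is written at CpG sites by DNA methyltransferases, and TET dioxygenases oxidise it to 5hmC, which is abundant in embryonic stem cells for a dividing cell type. A methyl-CpG binding domain holds double-stranded DNA with clustered methylated CpGs, and it binds 5hmC poorly. In MethylCap the bound DNA is washed off with salt, and more densely methylated fragments need more of it. The antibodies act on denatured DNA and recognise each base on its own. Regions known to hold stable methylation in these cells include the control regions of imprinted genes, which are methylated on the copy from 1 parent, and many silenced repeats. No gene models or genome sequence of mm9, the build of the files, were used here, so bins are given by position without gene names or sequence.

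The members were the low end of a range of 5hmC ratios that showed no gap at the threshold. Members held a median of 8 hMeDIP and 5 input reads, so counting error could blur separate classes. The ratios therefore cannot tell whether the members form a class of their own. Across doubly enriched bins the 5hmC ratio had a broad maximum, with 1079 to 1437 bins in each step of 0.1 from 1.3 to 2.0, and the threshold of 1.5 fell within it. There were 1246 members just inside it at 1.4 to 1.5, and 1089 bins just outside it at 1.5 to 1.6. These 2 groups were alike in the other libraries, with median ratios of 3.98 and 4.01 at 600 mM, 4.18 and 4.39 at 800 mM, and 3.66 in both with anti-5mC. A 5hmC ratio below 1.5 was also common, at 85.1% of all covered bins. The rare part of the rule was the enrichment, which 3.52% of covered bins reached at 600 mM, 2.64% with anti-5mC and 1.31% in both. The full rule called 0.231%.

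**Figure D1:**
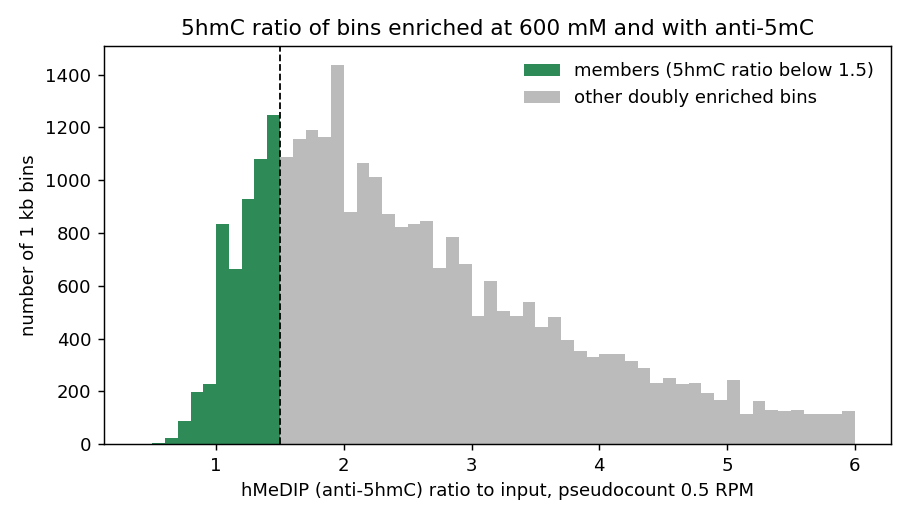
Number of 1 kb bins (vertical axis) by hMeDIP ratio to input (horizontal axis, steps of 0.1) among the 30122 doubly enriched bins. Members are green and the others grey, and the counts run on across the dashed threshold at 1.5, with 1246 bins in the last step inside it and 1089 in the first step outside. Bins with a ratio of 6 or more are not drawn.

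The values that chose the members were as follows. At 600 mM the members held 11 to 726 reads, with a median of 27, and their ratio had a median of 3.97 and a maximum of 75.5. With anti-5mC they held 11 to 183 reads (median 24), and the ratio had a median of 3.53 and a maximum of 14.1. Most members were thus close to the thresholds, and 2089 of them (39.4%) were below 4 in both libraries. With anti-5hmC they held 0 to 103 reads (median 8), and their ratio ran from 0.509 to 1.499 with a median of 1.27. Their input was sparse, with a median of 5 reads against 7 over all covered bins.

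The word "without" applies to few members in the strict sense. The ratio was below 1 in 543 members (10.3%), whereas 58.8% of all covered bins were below 1. Because the pseudocount pulls sparse bins toward 1, the raw ratio of hMeDIP to input reads was 1.5 or more in 3645 members (68.8%) and 3 or more in 721 (13.6%). The upper end of the interval of the raw ratio was below 1.5 in 33 members and below 3 in 346. Summed over all members, hMeDIP reads were 1.67-fold over input (1.65 to 1.70), against 7.84-fold (7.80 to 7.89) over the other doubly enriched bins and 1.03-fold over all covered autosomal bins. That contrast was fixed by the rule, which split the bins on the same reads. An absence of 5hmC could be bounded in few members at this depth.

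To see how far the pattern held in reads that had not chosen it, members were called on the reads of 1 strand and measured on the reads of the other. Bins called on plus strand reads numbered 6480. In minus strand reads they were 7.64-fold over input at 600 mM, 5.06-fold with anti-5mC and 1.90-fold (1.87 to 1.94) with anti-5hmC. The 27719 other doubly enriched bins called the same way were 8.28-fold, 5.09-fold and 3.60-fold (3.57 to 3.63). The methylation signal in unused reads was therefore close in both sets of bins, while 5hmC was 1.90-fold in members against 3.60-fold in the others. In the reads that chose the bins, 5hmC was 1.52-fold in members against 10.2-fold in the others. With the strands exchanged, 5hmC was 1.91-fold in members and 3.61-fold in the others. The bins that were members on both strands numbered 603, of 6480 called on plus strand reads and 6373 called on minus strand reads. Most calls thus did not recur on the other strand. In minus strand reads, 69.6% of the bins called on plus strand reads had a 5hmC ratio below 1.5. That share was 44.9% in the other doubly enriched bins and 83.9% over all covered autosomal bins. For the strongest bins the unused reads were less clear. The 80 members with a 600 mM ratio of 16 or more in plus strand reads had 5hmC of 2.10-fold (1.77 to 2.50) in minus strand reads, and the 69 called on minus strand reads had 3.10-fold (2.60 to 3.71) in plus strand reads. Of the 80, 32 were members on the other strand too, and of the 69, 23 were.

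The 800 mM eluate, which the rule did not use but which shares the input reads that entered it, also carried the members. Its ratio was 3 or more in 4322 of them (81.6%, interval 80.5 to 82.6), against 4.52% of all covered autosomal bins. The other doubly enriched bins gave 80.6% (80.2 to 81.1), and the intervals overlap. Summed reads were 11.2-fold over input in members and 12.3-fold in the other doubly enriched bins. Just 3 members were below input at 800 mM. When bins were called on plus strand reads and the 800 mM ratio was taken from minus strand reads, with its lower depth, 56.5% were at 3 or more.

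Direct comparison of the salt steps found few members that belonged to 1 eluate. With the same pseudocount, 45 members favoured the 600 mM eluate by 3-fold or more and 8 favoured the 800 mM eluate as strongly. These were 0.850% and 0.151% of members, against 0.709% and 0.177% of the other doubly enriched bins. Of the 45, 24 were among the 65 members with a 600 mM ratio of 16 or more. These 65 were picked by their 600 mM value, which raises that count. Their summed reads at 800 mM were 0.373-fold of those at 600 mM (0.360 to 0.386), and 0.419-fold (0.412 to 0.425) in the 389 other doubly enriched bins of the same strength.

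The share of members among doubly enriched bins differed with the strength of each methylation readout, in classes set after the values were seen. Members were 24.9% of doubly enriched bins with an anti-5mC ratio of 3 to 4, 15.4% at 4 to 5, 8.72% at 5 to 6, 4.96% at 6 to 8 and 2.02% at 8 to 12. At 12 or more, 3 of 287 bins were members (1.05%, interval 0.216 to 3.02). The anti-5mC and anti-5hmC ratios share the input reads, so these shares describe the bins and are no test of a link between the marks.

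Graded by the 600 mM ratio, the share of members was lowest in the middle classes. It was 20.8% at 3 to 4, 16.6% at 4 to 6, 11.9% at 6 to 8, 10.8% (9.42 to 12.4) at 8 to 16, 12.4% (9.21 to 16.3) at 16 to 32, and 21.7% (13.8 to 31.6) at 32 or more, where 20 of 92 bins were members. The share at 32 or more lay above the interval of the class at 8 to 16, on 20 bins that included direct neighbours. Of the same 92 bins, 61.96% had a 5hmC ratio of 3 or more, against 2.04% of all covered bins. In the lower classes of doubly enriched bins that share was 29.0% at 3 to 4, 34.2% at 4 to 6 and 44% at 6 to 8. It was 52.9% at 8 to 16 and 51.7% at 16 to 32.

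The 10 members with the highest 600 mM ratio, among those with at least 5 input reads, lay on 8 chromosomes. The rule held their 5hmC ratio below 1.5, and their raw ratio of hMeDIP to input reads ran from 0 to 2.02. The first, on chromosome 10 at 12810001–12811000, held 726 reads at 600 mM, 180 at 800 mM, 64 with anti-5mC and 5 with anti-5hmC, against 8 in input. The second, on chromosome 15 at 72640001–72641000, held 521, 132, 95 and 4 reads in the same order, against 7 in input. In both, the captured signal was over 10 times the 5hmC read count in each methylation library.

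The third, on chromosome 14 at 75723001–75724000, held 482 reads at 600 mM, 321 at 800 mM, 46 with anti-5mC and 12 with anti-5hmC, against 6 in input. It was the member with the highest 800 mM ratio (52.7), and its reads at 800 mM were 0.928-fold of those at 600 mM (0.803 to 1.07). The fourth, on chromosome 6 at 4697001–4698000, held 447 reads at 600 mM, 72 at 800 mM, 29 with anti-5mC and 6 with anti-5hmC, against 6 in input. Its 800 mM reads were 0.224-fold of those at 600 mM (0.173 to 0.288), so the strongest members differed widely in how the signal was divided between the eluates. The member second by its 800 mM ratio (31.3), on chromosome 13 at 8931001–8932000, was even in the same way as the third. It held 296 reads at 600 mM, 202 at 800 mM, 39 with anti-5mC and 13 with anti-5hmC, against 7 in input.

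The seventh, on chromosome 18 at 13132001–13133000, had the clearest lack of 5hmC of all members. It held 378 reads at 600 mM, 74 at 800 mM and 29 with anti-5mC, but 0 with anti-5hmC against 9 in input. The upper end of its raw 5hmC ratio was 0.511. A pair of adjoining named bins on chromosome 2 began at 157385001, with 319 and 361 reads at 600 mM, 89 and 71 at 800 mM, 51 and 31 with anti-5mC, and 9 and 5 with anti-5hmC, against 6 and 9 in input. The other named bins lay on chromosome 11 at 22872001–22873000, on chromosome 14 at 102153001–102154000 and on chromosome 5 at 135907001–135908000. They held 307 to 382 reads at 600 mM, 49 to 107 at 800 mM, 51 to 76 with anti-5mC and 6 to 14 with anti-5hmC, against 7 to 9 in input.

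Without the minimum of 5 input reads, further bins reached the same strength, and 10 of the 20 strongest lay next to another member. On chromosome 2, the adjoining bins from 174124001 and 174125001 held 454 and 432 reads at 600 mM, 84 and 74 at 800 mM, 40 and 30 with anti-5mC, and 7 and 6 with anti-5hmC, against 4 and 1 in input. On chromosome 11, the adjoining bins from 11925001 and 11926001 held 428 and 330 reads at 600 mM, 86 and 68 at 800 mM, 27 and 37 with anti-5mC, and 8 and 4 with anti-5hmC, against 4 and 0 in input. Few hMeDIP reads were found in these bins too, but so little input leaves their 5hmC ratio unbounded above in practice. For the bin from 174125001 the raw 5hmC ratio was 6.05-fold (0.734 to 278.3).

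**Figure D2:**
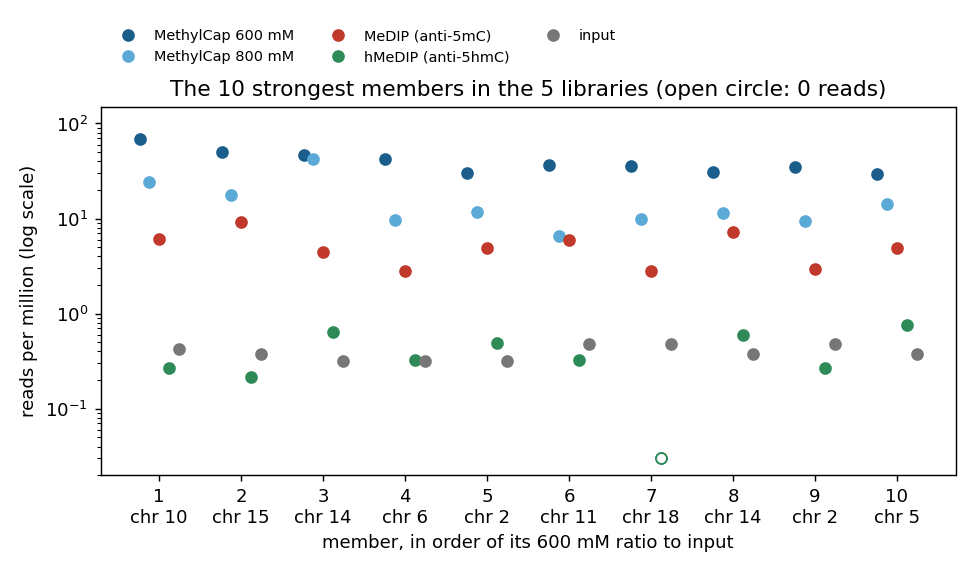
RPM (vertical axis, log scale) of the 10 members with the highest 600 mM ratio in the 4 enriched libraries and in input, 1 point per library, with the chromosome under each. The 600 mM points lie at 29.3 to 69.4 RPM. The rule kept the hMeDIP points near those of input, with 0 reads in the member on chromosome 18.

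Seen in 200 bp steps, the strongest members were narrow. On chromosome 10 the highest step at 600 mM held 267 reads and lay 300 bp from the bin's centre. hMeDIP had at most 8 reads in any step within 6 kb, and that step lay 4300 bp away. The bin after it was also high at 600 mM (169 reads, 16.1-fold) but missed the anti-5mC threshold (2.52-fold), with 1 hMeDIP read. On chromosome 15 the bins on both sides were members too, so that the run from 72639001 to 72642000 held 635 reads at 600 mM, 201 at 800 mM, 153 with anti-5mC and 8 with anti-5hmC, against 24 in input. The raw 5hmC ratio of this run was 0.336-fold (0.131 to 0.773). All its bins were members, chosen by the rule for low 5hmC in these same reads, so the value reads low.

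The locus on chromosome 14 held a member and a bin rich in 5hmC within 5 kb. Starting 4 kb after the member, the bin at 75727001–75728000 held 85 reads at 600 mM, 44 at 800 mM and 86 with anti-5mC, and 83 with anti-5hmC, against 7 in input. The 5hmC ratio was 1.398 in the member and 5.69 in this bin, while the 600 mM ratio was 56.7 in the member and 9.86 in this bin. The bins 1, 2 and 3 kb after the member were low in every enriched library, with ratios of 0.342 to 0.783.

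**Figure D3:**
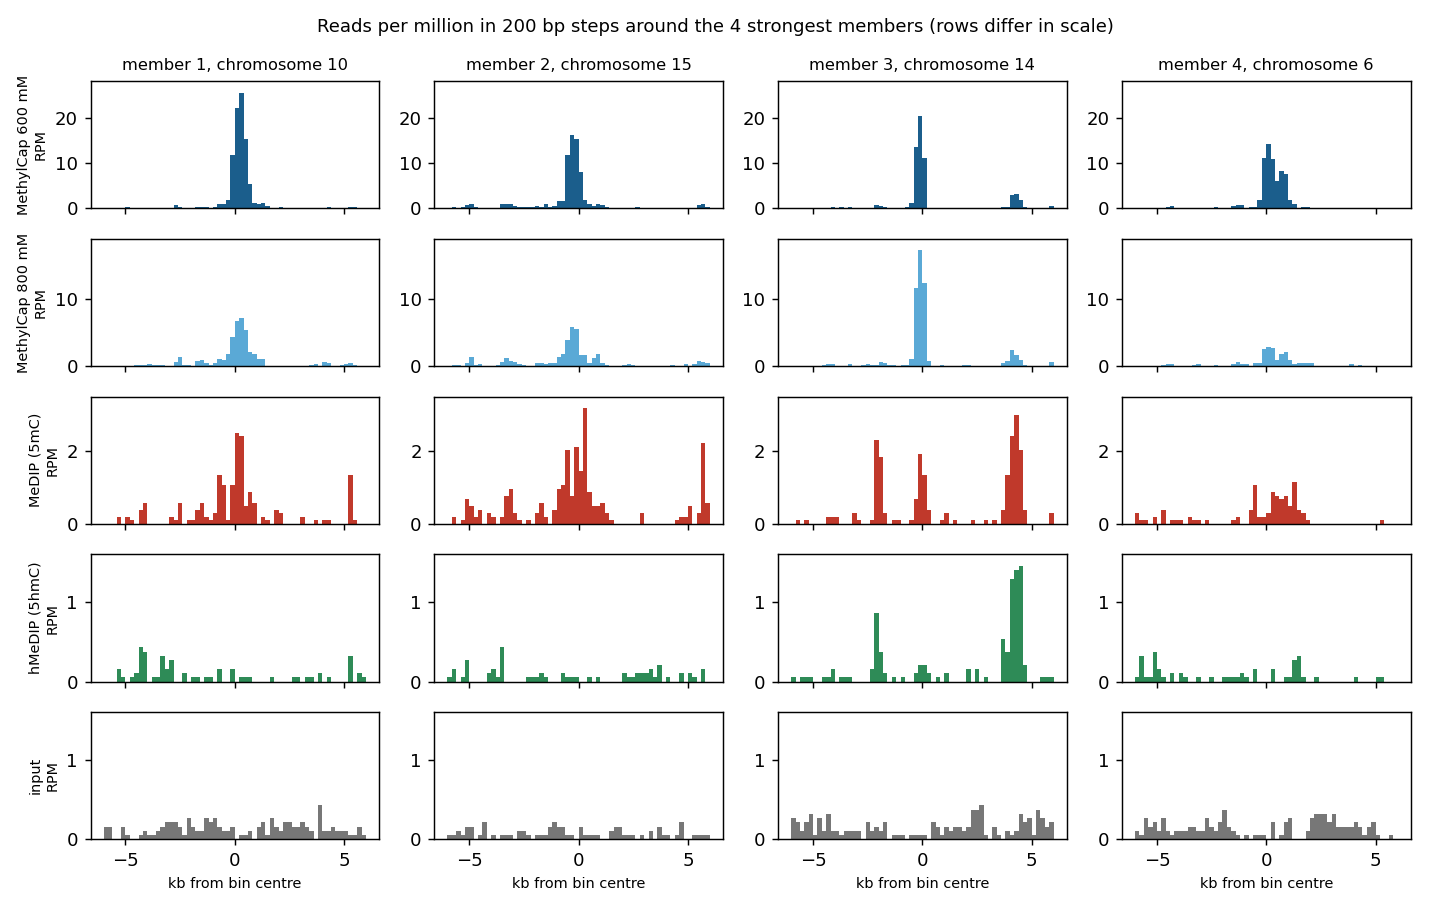
RPM in 200 bp steps (vertical axis, own scale for each row except that hMeDIP and input share 1) by distance from the bin's centre in kb, for the 4 members with the highest 600 mM ratio. The 600 mM peak sits near the centre in all 4, and hMeDIP is near input there, as the rule required. The member on chromosome 14 has a peak of hMeDIP beginning 4 kb to its right.

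The values in the members themselves were fixed by the rule, both the peak at 600 mM and the lack of a 5hmC peak, so the flanks are what the profile adds. In summed reads, the 600 mM eluate was 11.7-fold over input in the member, 4.06-fold and 3.90-fold in the bins next to it, and 2.36-fold and 2.31-fold at 10 kb. Input itself was lowest in the member, at 25625 reads, against 33373 and 33545 next to it and 37491 and 37478 at 10 kb. That dip raises every fold in the member relative to its flanks. hMeDIP was 1.67-fold in the member, 1.72-fold and 1.68-fold next to it and 1.63-fold at 10 kb on either side. The other doubly enriched bins, chosen for a 5hmC ratio of 1.5 or more, had 7.84-fold, with 2.66-fold and 2.68-fold next to it and 1.97-fold and 1.95-fold at 10 kb. Flanking bins were not chosen by the rule, and they too held less 5hmC beside members than beside the others. Without flanking bins that were themselves doubly enriched, the values 1 kb away were 1.47-fold and 1.46-fold beside members and 2.17-fold and 2.18-fold beside the others.

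The 65 members with a 600 mM ratio of 16 or more had flanks lower in 5hmC than members as a whole. Their peak was 92.6-fold over input at 600 mM, with 16.3-fold and 17.4-fold next to it, and it had dropped to 2.04-fold and 1.07-fold at 5 kb. hMeDIP was 1.45-fold in the bin (1.24 to 1.69) and close to or below input beside it, at 0.879-fold and 0.996-fold at 1 kb and 0.866-fold and 0.832-fold at 2 kb. Beside the 389 other doubly enriched bins of that strength, hMeDIP was 3.41-fold and 3.73-fold at 1 kb, and 2.55-fold and 2.67-fold at 2 kb. Some of these flanking bins were themselves doubly enriched, and the rule had sorted those by their 5hmC ratio. Without them, hMeDIP at 1 kb was 0.732-fold and 0.834-fold beside the 65, and 2.46-fold and 2.56-fold beside the 389. Among the 40 bins 1 and 2 kb from the 10 named members, 28 had a 5hmC ratio below 1 and 3 a ratio of 1.5 or more, while 15 were enriched at 600 mM. Of all covered bins, 58.8% had a 5hmC ratio below 1 and 85.1% a ratio below 1.5. The 40 count the adjoining named pair on chromosome 2 as flanks of each other, and bins beside both of them once for each. They also include other members, whose 5hmC ratio the rule set.

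**Figure D4:**
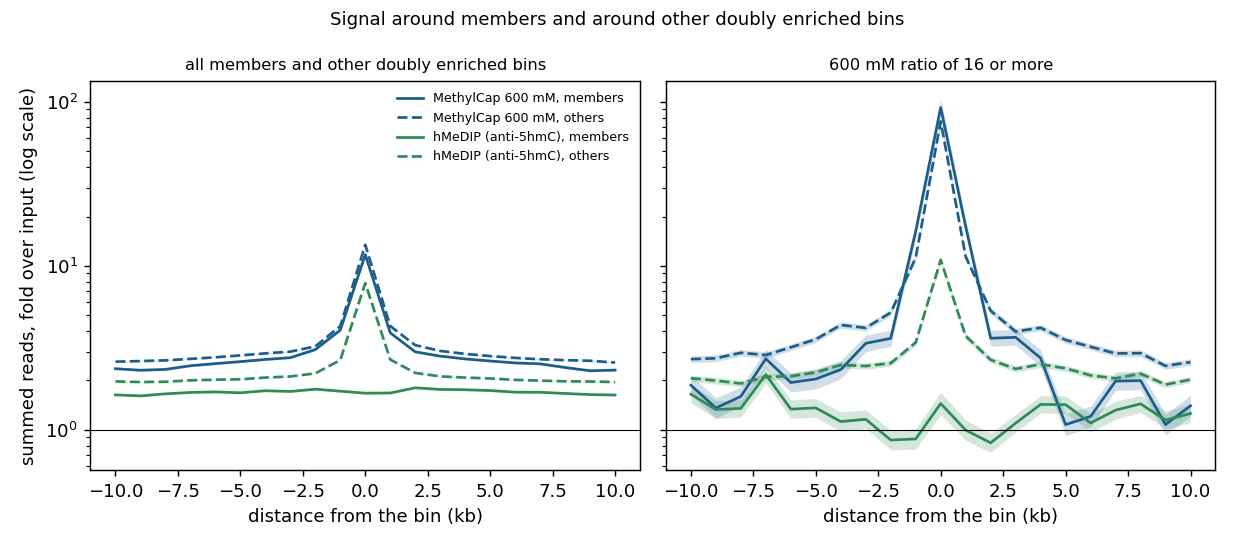
Summed reads as fold over input (vertical axis, log scale) by distance from the bin in kb, for members (solid) and other doubly enriched bins (dashed), in the 600 mM eluate and hMeDIP, with exact 95% intervals for counting error shaded. The left panel holds all 5296 members and 24826 others and the values at distance 0 were set by the rule; 10 kb away hMeDIP is 1.63-fold beside members and 1.97-fold and 1.95-fold beside the others. The right panel holds the 65 members and 389 others with a 600 mM ratio of 16 or more, and hMeDIP lies near input beside these members.

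Most members stood alone. They formed 5131 runs, of which 4980 were a single bin long, 141 had 2 bins, 7 had 3, 2 had 4 and 1 had 5. In all, 316 members (5.97%, interval 5.34 to 6.64) lay next to another, whereas 21.2% of the other doubly enriched bins lay next to one of their kind, in a set that is larger. The members' share was 2.99% with at least 5 input reads, 3.13% with a 5hmC ratio below 1 and 9.59% with a pseudocount of 0.1 RPM. Of the covered bins next to a member, 3.03% were members, against 0.231% of all covered bins. A further 7.18% were other doubly enriched bins, against 1.081% of all covered bins. A member's neighbour was therefore more often one of the other doubly enriched bins, which are the larger set, than another member. Relative to these shares of all covered bins, the excess beside members was larger for members than for the others. Of the covered bins next to one of the others, 11.0% were of that kind. No doubly enriched neighbour was found for 81.1% of members. Starts of successive members were a median of 141 kb apart, and 1153 members (21.8%) had another within 10 kb.

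Adjacency went with strength at 600 mM. Of members with a ratio of 3 to 4, 4.16% lay next to another member, against 12.6% at 6 to 8, 15.6% at 16 to 32 and 10 of 20 members at 32 or more. Among the other doubly enriched bins the share next to their own kind also went up, at 15.4%, 30.3%, 38.5% and 44.4% in the same classes.

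The longest run, of 5 bins, lay on chromosome 15 at 85646001–85651000 and was of moderate strength. It held 230 reads at 600 mM, 205 at 800 mM, 171 with anti-5mC and 48 with anti-5hmC, against 36 in input. Its 5hmC was 1.34-fold over input (0.855 to 2.13), and each of its bins held 6 to 14 hMeDIP reads. A run of 4 bins on chromosome 9 at 12135001–12139000 held 240, 132, 92 and 14 reads in the same libraries, against 4 in input. With so little input, its raw 5hmC ratio was 3.53-fold (1.11 to 14.7), so low 5hmC was not shown there. A second run of 4 on chromosome 2 at 76578001–76582000 held 184, 164, 137 and 25 reads against 32 in input, and its 5hmC was 0.788-fold (0.448 to 1.37). The run of 3 on chromosome 2 at 157385001–157388000 contains the pair named above, and held 732, 198, 119 and 24 reads, against 19 in input.

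The densest group of members lay around the run from 76578001. The 1 Mb window on chromosome 2 at 76000001–77000000 held 24 members, the most of any window, and they were 38.7% of its 62 doubly enriched bins. Of the 24, 17 lay within 100 kb at 76505001–76605000, out of 30 doubly enriched bins there. Over these 100 kb all reads together were 4.97-fold over input at 600 mM (4.58 to 5.38), 5.86-fold at 800 mM and 3.61-fold with anti-5mC. With anti-5hmC they were 1.32-fold (1.21 to 1.45). These sums include the 30 bins that the rule's methylation thresholds chose. The block was picked for its many members, and the rule held 5hmC low in those 17, so the low hMeDIP sum was partly set in advance. The block also held bins at or near input. Beside the member at 76572001–76573000, the bin before it had 0 reads at 600 mM (ratio 0.509) and the bin after it had a ratio of 1.19. Its members were moderate, with 21 to 57 reads at 600 mM and 19 to 62 with anti-5mC in each, and 1 to 18 with anti-5hmC.

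The other dense windows were enriched with anti-5hmC as well. They were on chromosome 8 at 125000001–126000000 (22 members), chromosome 9 at 119000001–120000000, chromosome 11 at 113000001–114000000 and chromosome 5 at 125000001–126000000 (18 each). Members were 17.6 to 20.2% of the doubly enriched bins in these 4 windows, which is close to the 17.6% over all autosomes. Their hMeDIP over the whole window was 2.10-fold to 2.50-fold over input, against 1.05-fold in the window on chromosome 2. That window was lower in the methylation libraries as well. It had 1.76-fold at 600 mM against 3.24-fold to 3.60-fold, and 1.54-fold with anti-5mC against 2.39-fold to 2.80-fold. Members were otherwise spread widely, since 855 of 2417 windows held none, the median was 1, and the 92 windows with 10 or more held 21.8% of members.

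By chromosome, members ranged from 3.30 per 1000 covered bins on chromosome 17, 3.27 on chromosome 8 and 3.09 on chromosome 5 down to 1.42 on chromosomes 1 and 14. The density of the other doubly enriched bins was high and low on the same chromosomes, at 15.9, 16.1 and 17.2 per 1000 on the first 3 and 6.71 and 5.47 on chromosomes 1 and 14. As a share of doubly enriched bins, members made up 23.1% on chromosome 18 (interval 20.4 to 25.9), 22.2% on chromosome 13 and 21.5% on chromosome 6, and 15.0% on chromosome 11 (13.5 to 16.6), 15.2% on chromosome 5 and 15.3% on chromosome 4. The 3 chromosomes with the largest share had 7.27 to 8.35 other doubly enriched bins per 1000 covered bins, and the 3 with the smallest share had 14.7 to 17.2.

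**Figure D5:**
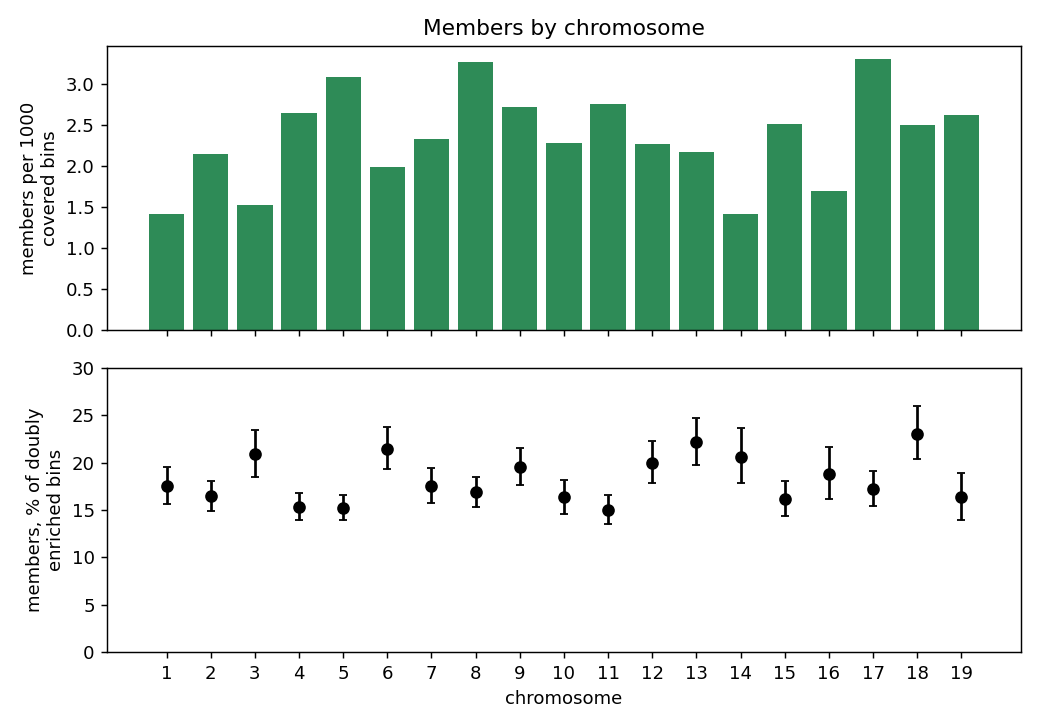
Members per 1000 covered bins (upper panel) and members as a percentage of doubly enriched bins with exact 95% binomial intervals (lower panel) on each autosome. The density runs from 1.42 on chromosomes 1 and 14 to 3.30 on chromosome 17, and the percentage from 15.0 on chromosome 11 to 23.1 on chromosome 18.

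Toward the chromosome ends, members were more frequent on the distal side. The distal 5 Mb, counted back from the last covered bin, held 366 members (6.91%, interval 6.24 to 7.63), against 8.57% of the other doubly enriched bins and 4.00% of all covered bins. The next 5 Mb inward held 10.3% of members, 11.1% of the others and 3.93% of covered bins. The last 2 Mb held 1.27% of members, 1.68% of the others and 1.603% of covered bins. The proximal 5 Mb, counted from the first covered bin, held 156 members (2.95%, interval 2.51 to 3.44), against 2.59% of the others and 3.76% of covered bins. With both methylation ratios at 5 or more the proximal share of members was 5.88%, above that of covered bins, so its direction depends on the threshold. Members thus shared the distal excess of doubly enriched bins, though to a lesser degree, and no excess was seen in the last 2 Mb.

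The member with the most input reads lay in a proximal region, on chromosome 9 at 3005001–3006000. It held 180 reads at 600 mM, 188 at 800 mM, 183 with anti-5mC and 103 with anti-5hmC, against 94 in input, where the median covered bin had 7. It was chosen for mention after its values were seen. Over all members, reads with a 1 in column 4 of the files, whose meaning was not stated by the labels, made up 7.76% at 600 mM, 7.78% at 800 mM and 9.01% in input. The shares over all covered bins were 7.85%, 8.14% and 8.45%. MeDIP and hMeDIP held 0% of such reads in their whole files, so both were set against an input that includes a class of reads they lack. With these reads left out of every library, 5165 bins met the rule.

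The 5 members with the lowest upper bound of 5hmC were led by the bin on chromosome 18 described above. The next lay on chromosome 8 at 42647001–42648000, with 29 reads at 600 mM, 23 at 800 mM, 23 with anti-5mC and 0 with anti-5hmC, against 7 in input (upper bound 0.700). A bin on chromosome 2 at 76572001–76573000, inside the dense block, held 33, 27, 34 and 1 reads, against 10 in input (0.709). The bin on chromosome 15 at 72639001–72640000, next to the second strongest member, held 87, 40, 36 and 3 reads, against 14 in input (0.774). The last, on chromosome 1 at 133630001–133631000, held 36, 19, 27 and 1 reads, against 9 in input (0.809). The bounds are extremes of many values, so they read low.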

How the data were processed

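Per the submitters' processing notes, the aligner was BWA 0.5.8 and the build mm9. The deposited files list 1 read of 35 bp per line, and the deposited count in column 5 was 1 in every line. A position and strand held at most 2 reads in both MethylCap libraries and at most 1 in MeDIP, hMeDIP and input, so dense signals are capped at different levels in these libraries. What the deposited flag in column 4 (0 or 1) means was not stated by the labels. Here reads were assigned by midpoint to 1 kb bins and scaled to RPM on chromosomes 1 to 19 and X, with a pseudocount of 0.5 RPM. That pseudocount pulls sparse bins toward a ratio of 1. Folds of summed or raw reads carry no pseudocount. Intervals were exact 95% intervals (Clopper-Pearson; conditional binomial for ratios), computed with Python 3.11.15, SciPy 1.17.1, NumPy 2.4.6 and pandas 2.3.3; figures used matplotlib 3.10.9. The rule was tried on simulated counts, with strong enrichment planted in bins without sparse input. That trial does not cover members with sparse input or with ratios near the thresholds. The members, the named bins and the comparisons were chosen with earlier results of these data known. The strength classes were set after seeing values. Named were the 10 members with the highest 600 mM ratio (at least 5 input reads and 20 reads at 600 mM), 5 by the 800 mM ratio, 5 by the lowest 5hmC bound, the 5 longest runs and the 5 fullest 1 Mb windows. Alternatives changed the pseudocount, bins, filters, scaling, thresholds and reads used.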

Additional observations from a re-analysis of the deposited data

Results flagged for a closer look

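Chromosome X was outside the rule. On it, 17 bins met the same thresholds, of 78 doubly enriched bins and 142638 covered bins. That is 0.119 per 1000 covered bins, against 2.31 per 1000 on the autosomes, and 21.8% of the doubly enriched bins. Of the reads on chromosomes 1 to 19 and X, 10333875 of 10462783 at 600 mM lay on the autosomes, and 10260899 of 10442811 with anti-5mC. In input it was 17840298 of 18676265, so X held a smaller part of the reads in those libraries than in input. The densities were not adjusted for this offset, and its part in the difference was not tested. Over these 17 bins summed reads were 29.8-fold over input at 600 mM, 18.8-fold at 800 mM, 16.1-fold with anti-5mC and 1.94-fold with anti-5hmC, on 39 input reads. They were singled out because this signal lies in data that the rule leaves out.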

How the results depend on the processing

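The number of members (5296) was 20410 with a pseudocount of 0.1 RPM and 1177 with 1 RPM. It was 2738 with at least 5 input reads, 8325 with each library's median ratio set to 1, 543 with a 5hmC ratio below 1 and 238 with both methylation ratios at 5 or more. The share enriched at 800 mM (81.6%) was 80.3% with 1 RPM, 77.1% in 500 bp bins, 87.2% with the median set to 1, 79.2% with 5hmC below 1, 97.5% at 5 or more and 56.5% on plus strand reads. The share next to another member (5.97%) was 9.59% and 4.25% with 0.1 and 1 RPM, 6.89% in 500 bp bins, 6.77% in shifted bins, 2.99% with at least 5 input reads, 3.13% with 5hmC below 1, 4.202% at 5 or more, 5.22% on plus strand reads and 7.04% with input replaced by its mean. The proximal 5 Mb (2.95%) held 3.50% and 3.74% with 0.1 and 1 RPM, 2.23% with at least 5 input reads, 3.68% with 5hmC below 1 and 5.88% at 5 or more. The distal 5 Mb (6.91%) held 5.82%, 8.07% and, with the median set to 1, 6.20%. The cause was not tested. The read shift and the mean input were chosen after seeing the data. No paired analysis was possible because there was 1 library of each kind. Depth limits single bins, since 48.3% of members had under 5 input reads.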
